A study of Homo sapiens with 36 samples.

Results

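Keratins were described as a family of 55 genes among the 58735 genes counted, 19951 of which are protein-coding. Members were all protein-coding genes whose symbol is KRT followed by a number and at most 1 letter. No measured value was used to choose them. They were read in 36 RNA-seq libraries, 12 groups of 3, from HN4, HN6 and Cal27, which are established lines of squamous carcinoma of the head and neck. In an IL-8 experiment each line was either left without treatment or given recombinant human IL-8, a chemokine, at 100 ng/ml for 24 h. In a plasmid experiment each line received either an empty vector or a plasmid with ACLY, the enzyme that makes cytosolic acetyl-CoA from citrate. The time after transfection is not given in the sources used here. All 12 groups were grown in medium with exosome-depleted serum, and RNA was selected by its poly-A tail. Treatment and line comparisons share their untreated or vector libraries. Their results are set side by side and not counted as separate support. Whether replicates came from separate cultures is not stated in the labels. The p-values therefore reflect only how far libraries spread, which may be technical.

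Keratins build the intermediate filaments of epithelial cells. A filament is made of pairs of an acidic type I keratin, encoded on chromosome 17 except KRT18, and a basic type II keratin, encoded on chromosome 12. Simple epithelia use KRT8 and KRT18 with KRT7 and KRT19, the proliferating basal layer of squamous epithelium uses KRT5 with KRT14 and KRT15, and wounded or hyperproliferating epithelium adds KRT6A, KRT6B, KRT16 and KRT17. Hair keratins such as KRT81 and KRT86 form the filaments of the hair shaft. In squamous epithelium of the mouth, KRT4 and KRT13 mark the differentiating layers above the basal cells, and KRT1 and KRT10 mark those of the epidermis.

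Libraries held 16570601 to 20232735 counts, so that 0 reads allow a level of up to 0.148 to 0.181 CPM (counts scaled to library size). Such limits cover counting error only. Of 8 squamous epithelial marker genes, 7 or 8 were at 1 CPM or more in every group, and of 6 leukocyte markers none was, with a summed level of at most 1.58 CPM. Fibroblast markers were at 1 CPM or more for 3 to 4 of 9 genes (17.2 to 61.5 CPM summed). Endothelial markers were so for 1 to 2 of 4 (3.93 to 28.2 CPM) and melanocyte markers for 0 to 1 of 4 (0.861 to 5.26 CPM). Their part in the keratin results was not tested. The HN4 plasmid libraries went against their labels on ACLY, which was at 1508 ± 10.0 CPM in the 3 labelled vector and 348 ± 30.4 CPM in the 3 labelled ACLY (mean ± SD, n = 3). With the plasmid it rose from 268 to 2210.1 CPM in HN6 and from 230.1 to 1901 CPM in Cal27. The HN4 libraries are called labelled vector and labelled ACLY throughout, and no direction of an ACLY effect is drawn from them. With IL-8, ACLY went from 374 to 1351 CPM in HN4 and from 233 to 1170 CPM in Cal27, but from 280.3 to 224 CPM in HN6. Replicate 3 of Cal27 with IL-8 stood apart from the other 2 of its group, with 1.06% of counts on mitochondrial genes, as did replicate 3 of HN4 labelled ACLY with 2.15%; all other libraries had 3.16% or more. Counts of called keratins in the treatment comparisons that these libraries moved are given with and without them.

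Several keratins are so alike that short reads may not tell them apart. KRT81 (hg38, chr12:52285913-52291534, minus strand) and KRT86 (chr12:52249300-52309163, plus strand) are hair keratins whose coding sequences differ at 93 of 1454 aligned bases and share an identical run of 605 bases. Of all stretches of 100 bases in the principal transcript of KRT81, 30.3% also occur in another gene, nearly all in KRT86, and for KRT86 the share is 28.0%. The following 60 coding bases (positions 1249 to 1308 of both, spanning exons 8 and 9 of 9 in KRT81 and exons 10 and 11 of 11 in KRT86, from GENCODE 29) are where the pair differs most. They are shown because the largest changes in Cal27 are assigned to this pair, and capitals mark the 14 bases that differ.
KRT81: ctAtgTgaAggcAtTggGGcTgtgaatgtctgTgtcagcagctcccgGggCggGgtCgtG
KRT86: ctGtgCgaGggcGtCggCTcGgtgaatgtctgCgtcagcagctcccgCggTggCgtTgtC
Reads over such a stretch can be placed, while those within the identical run cannot, so the split between the pair is uncertain.

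The wound keratins KRT6A (chr12:52487174-52493257), KRT6B (chr12:52446651-52452126) and KRT6C are closer still. Their coding sequences are 97.9% identical between KRT6A and KRT6C, 97.5% between KRT6A and KRT6B, and 98.5% between KRT6B and KRT6C. Shared stretches of 100 bases made up 18.2% of KRT6A, 24.6% of KRT6B and 31.7% of KRT6C. Coding positions 664 to 723, all in exon 2 of 9, are where these copies differ most and show how few bases separate them. Capitals mark the 9 positions that are not the same in all 3.
KRT6A: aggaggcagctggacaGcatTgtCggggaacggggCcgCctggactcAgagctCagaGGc
KRT6B: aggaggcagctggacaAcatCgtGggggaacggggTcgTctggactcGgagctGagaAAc
KRT6C: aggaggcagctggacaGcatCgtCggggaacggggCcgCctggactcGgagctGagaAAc
KRT8 (chr12:52897187-52949954, minus strand) and KRT18 (chr12:52948871-52952901, plus strand) overlap head to head over 525 exon bases on opposite strands, and 16.6% of the stretches of KRT18 also occur in KRT8. No stretch of KRT80, KRT15, KRT19 or KRT10 occurs in another gene. The strand setting and the treatment of reads with several matches are not given in the sources used here.

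Of the 55 keratins, 16 reached a group mean of 10 CPM in at least 1 of 12 groups, 8 peaked between 1 and 10 CPM, and 31 stayed under 1 CPM everywhere. Of those 31, KRT76 and KRT26 had no read. Untreated HN4 had 10 members at 10 CPM or more, HN6 11 and Cal27 12, and the numbers at 1 CPM or more were 13, 14 and 23. After the filter on low counts, 25 keratins were tested in each experiment, 14 type I and 11 type II. Of all counts in the 3 untreated lines, keratins took 0.685 ± 0.0232% in HN4, 0.731 ± 0.0515% in HN6 and 0.722 ± 0.0491% in Cal27 (mean ± SD, n = 3). In bulk RNA, fewer cells with a keratin and less of its RNA per cell cannot be told apart.

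The makeup of that share differed between the lines. Per kb of the deposited gene length, hair keratins made up 76.8 ± 0.784% of the keratin level in untreated HN4, simple epithelial keratins 62.3 ± 1.66% in HN6, and basal keratins 65.1 ± 0.568% in Cal27. Wound keratins in Cal27 added 23.0 ± 0.361%. Hair keratins were 22.6 ± 1.96% in HN6 and 0.441 ± 0.0225% in Cal27. In untreated HN4 KRT81 alone made up 75.9% and KRT86 0.909% of the keratin level, so the hair share is nearly that of 1 gene. Of 6 hair keratins tested, 2 were lower in untreated Cal27 than in HN4, and 4 were higher. The 4 were of low level, and some passed the low-count filter through Cal27 alone, as given below. The deposited length exceeds that of the principal transcript for some genes, with 6881 against 2126 bases for KRT8. Per kb of the principal transcript the leading shares were 60.7 ± 1.05% hair in HN4, 77.3 ± 1.02% simple epithelial in HN6 and 62.7 ± 0.595% basal in Cal27. By both lengths KRT81 led the keratins in HN4 (1960.2 CPM per kb) and KRT5 in Cal27 (756 CPM per kb of deposited length), while in HN6 the leader was KRT81 per kb of deposited length and KRT8 per kb of principal transcript. Type II keratins outweighed type I keratins 13.6 ± 0.703 to 1 in HN4, 2.66 ± 0.159 to 1 in HN6 and 1.62 ± 0.0142 to 1 in Cal27, per kb of deposited length. These ratios depend on the length used, as the shares do.

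**Figure D1:**
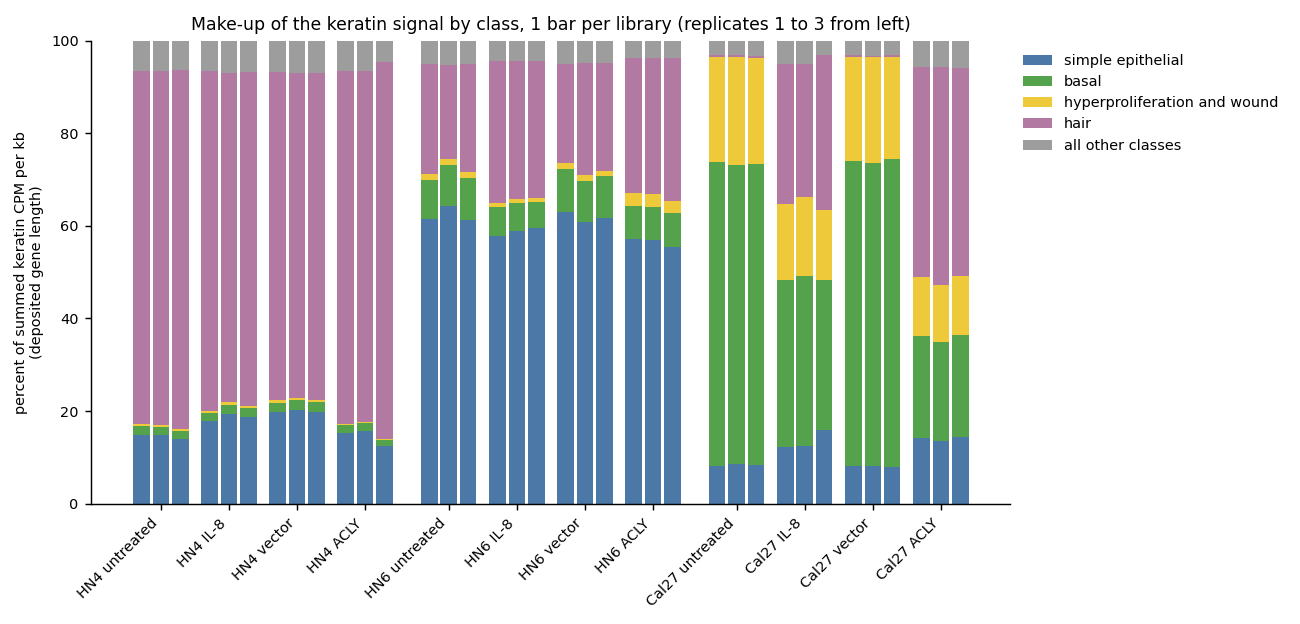
Share of the summed keratin level (CPM per kb of deposited gene length, percent) by keratin role, with 1 bar per library and 3 libraries in each of 12 groups. Hair keratins fill 76.8% of the bar in untreated HN4 and 0.441% in untreated Cal27, but 30.8% after IL-8 and 45.7% with the ACLY plasmid in Cal27. KRT81 alone makes up 75.9% in untreated HN4. Cal27 with IL-8 or ACLY also held genes otherwise read only in HN4, and their part was not tested.

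**Figure D2:**
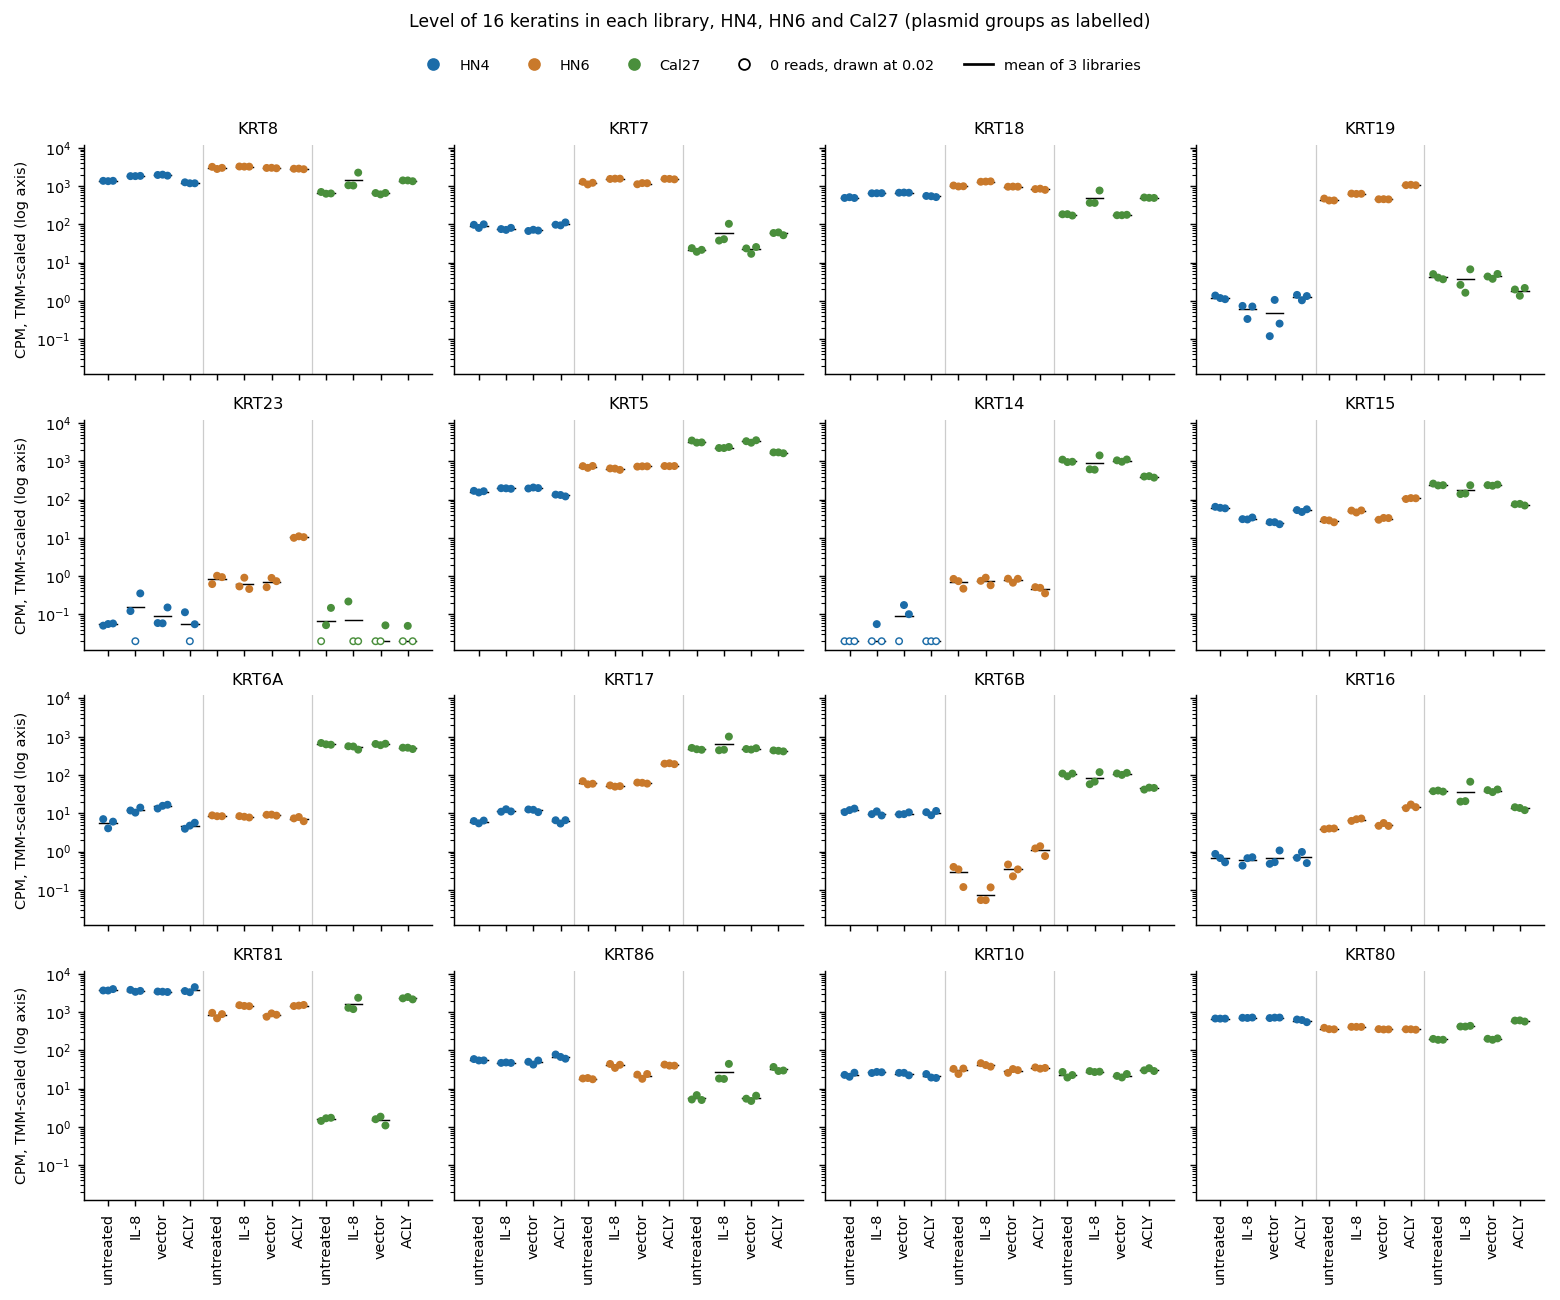
Level of the 16 keratins that reached 10 CPM, in CPM on a log axis, for each of the 12 groups; points are libraries, and open circles at the foot are libraries with 0 reads. KRT81 lies between 3310 and 4488 CPM in all HN4 libraries and between 1.09 and 1.85 CPM in untreated and vector Cal27, while KRT10 stays between 19.0 and 46.3 CPM in every library.

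The simple epithelial keratins KRT7, KRT19, KRT8 and KRT18 were highest in HN6. KRT7, a type II keratin of glandular and transitional epithelium (chr12:52232520-52252186), was at 1287, 1099.6 and 1215 CPM in the 3 untreated HN6 libraries, 97.0, 80.3 and 99.8 CPM in HN4 and 23.8, 19.1 and 21.5 CPM in Cal27. KRT19, a small type I keratin of simple epithelia and stem cell compartments (chr17:41523617-41528308), was at 470.1, 419 and 419.8 CPM in HN6, 1.38, 1.18 and 1.11 CPM in HN4 and 5.00, 4.05 and 3.67 CPM in Cal27. No library of 1 line overlapped another line for either gene. All tests of single genes below are edgeR quasi-likelihood tests with Benjamini-Hochberg adjustment over all genes of the experiment, given as log2 change ± SE. KRT7 was higher in HN6 than in HN4 by 3.69 ± 0.27 (SE), adjusted p = 1.52e-09, and lower in Cal27 than in HN6 by a log2 change of -5.77 ± 0.31 (SE), adjusted p = 1.4e-11. KRT19 was 351-fold higher in HN6 than in HN4 (log2 change 8.45 ± 0.33 (SE), adjusted p = 2.33e-13) and differed between Cal27 and HN6 by -6.66 ± 0.29 (SE), adjusted p = 9.02e-13. The partners KRT8 and KRT18 were at 2982 ± 189.5 and 998 ± 30.6 CPM in HN6, 1358 ± 15.6 and 495 ± 13.2 CPM in HN4, and 656 ± 37.6 and 179 ± 8.23 CPM in Cal27 (mean ± SD, n = 3), without overlap between lines. KRT8 differed by 1.12 between HN6 and HN4 (adjusted p = 8.48e-05) and by -1.03 between Cal27 and HN4 (adjusted p = 0.000214), and KRT18 by 1.00 (adjusted p = 0.000179) and -1.45 (adjusted p = 3.57e-06). Per kb of deposited length, KRT8 stood to KRT18 at 1.28 ± 0.0481 in HN4, 1.40 ± 0.0503 in HN6 and 1.72 ± 0.105 in Cal27. The ratio depends on the length used. Per kb of principal transcript the 2 genes lay further apart, with KRT8 and KRT18 at 639 and 317 CPM per kb in HN4. They were at 1403 and 639 in HN6 and at 309 and 114 in Cal27.

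Basal and wound keratins were highest in Cal27. KRT14, the type I partner of KRT5 in basal cells (chr17:41582279-41586921), was at 1112, 959 and 978 CPM in untreated Cal27, 0.849, 0.742 and 0.473 CPM in HN6 and 0 reads in all 3 HN4 libraries. Against the limit that 3 counts per library set, KRT14 was at least 6042-fold higher in Cal27 than in HN4 and at least 4.09-fold higher in HN6 than in HN4. KRT5 (chr12:52514575-52520687) was at 3513, 3089.9 and 3137 CPM in Cal27, 752, 678 and 759 CPM in HN6 and 169.8, 154 and 166 CPM in HN4, with no overlap between lines. The log2 difference of KRT5 was 4.33 ± 0.086 (SE), adjusted p = 7.65e-17 between Cal27 and HN4 and 2.18 ± 0.078 (SE), adjusted p = 7.13e-14 between Cal27 and HN6. KRT15, a type I keratin of basal cells and hair follicle stem cells (chr17:41513743-41522529), was also highest in Cal27 at 263, 235 and 239 CPM, against 65.0, 61.3 and 59.4 CPM in HN4 and 29.4, 28.7 and 25.6 CPM in HN6.

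Among the wound keratins KRT6A was at 688, 633 and 618 CPM in untreated Cal27, 8.83, 8.39 and 8.39 CPM in HN6 and 7.04, 4.05 and 6.05 CPM in HN4. Cal27 exceeded HN4 by a log2 difference of 6.83 ± 0.16 (SE), adjusted p = 3.32e-16. KRT17, a type I keratin induced on wounding (chr17:41619441-41624842), was highest in Cal27 (511, 472 and 456 CPM), lower in HN6 (69.1, 57.1 and 59.2 CPM) and lowest in HN4 (6.27, 5.46 and 6.46 CPM). Cal27 stood above HN4 by 6.32 ± 0.28 (SE), adjusted p = 1.33e-12, and HN6 above HN4 by 3.34 ± 0.26 (SE), adjusted p = 2.84e-09. KRT16, the type I partner of KRT6 (chr17:41609778-41615899), followed the same order at 38.0 ± 1.21, 3.95 ± 0.0915 and 0.689 ± 0.172 CPM. Its log2 differences were 5.78 for Cal27 against HN4 (adjusted p = 3.56e-09) and 2.48 for HN6 against HN4 (adjusted p = 0.000535). KRT6B did not: HN6 was lowest at 0.286 ± 0.147 CPM, HN4 was at 12 ± 1.25 CPM and Cal27 at 104 ± 9.46 CPM. HN6 stood below HN4 by a log2 difference of -5.36 (adjusted p = 8.63e-10) and Cal27 above HN6 by 8.49 (adjusted p = 4.1e-13). KRT6C had 141 reads in the 3 Cal27 libraries, 39 in HN4 and 0 in HN6, at least 14.9-fold higher in Cal27 than in HN6.

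The hair keratins KRT81 and KRT86 ran the other way. KRT81 was at 3678, 3669 and 3997 CPM in untreated HN4, 957, 689 and 886 CPM in HN6 and 1.43, 1.68 and 1.73 CPM in Cal27, where the 3 libraries held 94 reads together. The order HN4, HN6, Cal27 had no overlap. The log2 difference was -2.17 ± 0.19 (SE), adjusted p = 1.55e-08 for HN6 against HN4, and -11.17 ± 0.30 (SE), adjusted p = 1.87e-15 for Cal27 against HN4. KRT86 was at 59.2, 54.5 and 54.8 CPM in HN4, 18.4, 18.9 and 17.6 CPM in HN6 and 5.21, 6.78 and 5.05 CPM in Cal27. Against HN4 its log2 differences were -1.63 (adjusted p = 1.18e-05) and -3.29 (adjusted p = 5.76e-09). Per kb of deposited length, KRT81 stood to KRT86 at 83.7 ± 6.75 in HN4, 57.4 ± 10.6 in HN6 and 0.359 ± 0.0607 in Cal27. KRT80, a type II keratin of no fixed epithelial layer (chr12:52168996-52192000), had the same order of lines at 680.1, 675 and 675 CPM in HN4, 389, 358 and 355 CPM in HN6 and 199.5, 189 and 189.6 CPM in Cal27. Its differences from HN4 were -0.89 (adjusted p = 2.91e-10) and -1.80 (adjusted p = 2.79e-14).

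Keratins of the differentiating layers were low or near level. KRT10 (chr17:40818117-40822595), the type I keratin of the epidermal layers above the basal cells, was at 22.9, 20.4 and 26.1 CPM in untreated HN4, 32.8, 24.1 and 33.5 CPM in HN6 and 27.3, 19.5 and 22.7 CPM in Cal27. These ranges overlap, and the log2 difference of Cal27 from HN4 was 0.02 ± 0.14 (SE), adjusted p = 0.909. That of HN6 from HN4 passed the threshold at 0.37 ± 0.14 (SE), adjusted p = 0.0239, but not with library-size scaling (adjusted p = 0.0843) nor without any 1 of 4 libraries (replicate 1 or 2 of HN4, or replicate 1 or 3 of HN6; adjusted p from 0.058 to 0.111). KRT13, the mucosal keratin of the oral lining, was at 4.63 ± 0.831 CPM in Cal27, 1.06 ± 0.286 CPM in HN6 and 0.169 ± 0.157 CPM in HN4, which is at the detection limit. Its differences were 4.77 for Cal27 against HN4 (adjusted p = 8.65e-07) and 2.61 for HN6 against HN4 (adjusted p = 0.00333). KRT4 had 1 read and KRT1 6 reads in all 36 libraries, and neither was tested.

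Over the tested keratins, 20 of 25 differed between untreated HN6 and HN4, 13 higher in HN6 and 7 lower, where 67.2% of all genes tested differed (32.4% higher and 34.7% lower). Between Cal27 and HN4 23 differed, 17 higher and 6 lower (all genes 63.6%, 32.2% and 31.4%). Between Cal27 and HN6 all 25 did, 16 higher in Cal27 and 9 lower (68.4%, 35.3% and 33.1%). The median log2 difference over the 25, with members at 0 reads set to their bound, was 1.00 for HN6 against HN4, 2.10 for Cal27 against HN4 and 2.99 for Cal27 against HN6, beside -0.03, 0.00 and 0.03 over all genes. Some members, such as KRT33A and KRT33B, passed the low-count filter through Cal27 alone. They were at 0.719 and 2.09 CPM in untreated Cal27, 0.0197 and 0.0380 CPM in HN6 and 0 reads in HN4. Their higher calls in Cal27 follow from how they were selected, and the counts and medians include them. The vector groups gave 19 called keratins for HN6 against HN4 labelled vector (13 higher and 6 lower; all genes 69.3%, 34.7% and 34.6%). They gave 23 for Cal27 against HN4 labelled vector (17 and 6; 71.8%, 35.6% and 36.1%) and 25 for Cal27 against HN6 (16 and 9; 73.3%, 36.7% and 36.6%). Of the keratins named above, KRT15 and KRT6A took opposite signs in these comparisons of HN6 with HN4. KRT15 was -1.16 in untreated cells (adjusted p = 3.58e-06) and 0.37 in vector cells (adjusted p = 3.76e-05). KRT6A was 0.56 (adjusted p = 0.00379) and -0.77 (adjusted p = 1.95e-08). The HN4 arm of the vector comparison is the one whose labels ACLY goes against.

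A pair of members that differ in how far their levels vary between lines is shown with the 300 bases around their RefSeq start (250 before and 50 after; RefSeq, GRCh38.p14). These are KRT5, which differed between all 3 lines, at chr12:52520345-52520644, minus strand, and KRT10, which stayed within 19.0 to 46.3 CPM in every library, at chr17:40822565-40822864, minus strand. Capitals mark TATAAA, the TATA box letters, searched on both strands.
KRT5: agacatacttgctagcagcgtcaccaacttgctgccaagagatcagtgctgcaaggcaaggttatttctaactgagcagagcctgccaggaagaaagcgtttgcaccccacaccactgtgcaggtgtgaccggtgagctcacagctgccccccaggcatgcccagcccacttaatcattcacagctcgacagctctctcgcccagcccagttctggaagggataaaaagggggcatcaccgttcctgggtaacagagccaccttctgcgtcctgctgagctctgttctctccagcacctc
KRT10: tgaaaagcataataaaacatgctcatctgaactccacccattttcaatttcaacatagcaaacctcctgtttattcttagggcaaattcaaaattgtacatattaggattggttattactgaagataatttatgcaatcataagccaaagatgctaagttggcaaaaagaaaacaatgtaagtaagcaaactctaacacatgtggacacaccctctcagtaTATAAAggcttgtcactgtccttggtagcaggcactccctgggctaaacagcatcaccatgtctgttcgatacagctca
TATAAA starts at position -29 of KRT10 and does not occur in the KRT5 window. Of the 16 keratins that reached 10 CPM, only KRT5, KRT8 and KRT10 had a window, and KRT81, KRT14 and KRT18 were among those without. The shares below thus describe mostly keratins of low level in these lines. Of 34 keratins with a window in the table, 20 (58.8%) held TATAAA, against 12% of 27305 windows of all genes. TGANTCA, the AP-1 motif, was held by 0 (7.76% of all), and GGGCGG, a GC box, by 6 (17.6%, against 44.6% of all). All were searched on both strands, and letters of one motif cannot overlap those of another. These are matches of letters and not measured sites.

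With IL-8 the largest keratin changes were in Cal27. There the hair keratins KRT81 and KRT86, the simple epithelial keratins KRT7, KRT8 and KRT18, and KRT80 rose, and the basal keratins KRT5 and KRT15 fell. Genes otherwise read only in HN4 were also read in these IL-8 libraries, as given below. The part of RNA of another line in these changes was not tested. KRT81 went from 1.43, 1.68 and 1.73 CPM to 1297, 1199 and 2369 CPM, a 993-fold rise (log2 change 9.96 ± 0.29 (SE), adjusted p = 5.15e-14). All 3 treated libraries lay far above all untreated ones, and replicate 3 was the highest. KRT86 went from 5.21, 6.78 and 5.05 to 18.3, 18 and 44.4 CPM (log2 change 2.23 ± 0.27 (SE), adjusted p = 5.25e-06), again with replicate 3 highest and no overlap. KRT80 went from 199.5, 189 and 189.6 to 420.0, 419 and 437 CPM (log2 change 1.13 ± 0.059 (SE), adjusted p = 1.27e-10), with the 3 treated libraries close together.

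Of 5 simple epithelial keratins tested, 3 rose in Cal27 with IL-8 as well, and 0 were called lower. KRT8 went from 699, 629 and 639.8 to 1047, 1029.8 and 2242 CPM. KRT18 went from 183, 184 and 169 to 364, 362 and 763 CPM, and KRT7 from 23.8, 19.1 and 21.5 to 37.6, 40.8 and 103 CPM. No treated library overlapped an untreated one, and replicate 3 had more than the other 2 in each case. Their log2 changes were 1.13 ± 0.20 (SE), adjusted p = 0.000329 for KRT8, 1.47 ± 0.20 (SE), adjusted p = 1.66e-05 for KRT18, and 1.48 ± 0.27 (SE), adjusted p = 0.000325 for KRT7. KRT5 fell from 3513, 3089.9 and 3137 to 2238, 2233 and 2382 CPM (log2 change -0.52 ± 0.075 (SE), adjusted p = 3.8e-05), with all treated libraries below all untreated ones. KRT6A went from 688, 633 and 618 to 565, 557 and 460.2 CPM (-0.31 ± 0.12 (SE), adjusted p = 0.0499). KRT15 went from 263, 235 and 239 to 140.0, 144 and 238 CPM (-0.51 ± 0.15 (SE), adjusted p = 0.0123), and replicate 3 of KRT15 lay among the untreated libraries. The hair keratins KRT32 and KRT33B, of low level, fell from 2.66 ± 0.307 to 1.60 ± 0.321 CPM (adjusted p = 0.0405) and from 2.09 ± 0.223 to 0.923 ± 0.232 CPM (adjusted p = 0.0168). The call of KRT33B was lost without any 1 of 4 Cal27 libraries (replicate 1 or 2 of either group; adjusted p from 0.052 to 0.0595). KRT33B passed the low-count filter through Cal27 alone, so its fall may follow in part from that selection. Fitted on the Cal27 groups alone, KRT6A and KRT8 missed the threshold (adjusted p = 0.131 and 0.0515). KRT6A also missed it without any 1 of the 3 untreated Cal27 libraries, and without any 1 of 9 libraries of the other lines (adjusted p from 0.0536 to 0.159). KRT14 with 621, 607 and 1435 CPM, KRT17 with 444, 458 and 1009.9 CPM and KRT16 with 20.1, 20.8 and 66.8 CPM under IL-8 did not pass the test. Their log2 differences were -0.20, 0.40 and -0.09 (adjusted p = 0.534, 0.142 and 0.843). Replicate 3 of each was above every untreated library, while the other 2 treated libraries were below them for KRT14 and KRT16.

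In all, 11 of 25 keratins changed in Cal27 with IL-8, 6 higher and 5 lower, where 39.4% of all genes did (22.7% higher and 16.7% lower). The median over the 25 was -0.25 and over all genes 0.00. Replicate 3 bears on this count. It held 1.90 times the mean of replicates 1 and 2 for KRT81, 2.16 for KRT8, 2.10 for KRT18, 2.63 for KRT7, 2.34 for KRT14, 2.24 for KRT17 and 3.27 for KRT16. The ratio was 1.07 for KRT5, 1.04 for KRT80, 0.99 for KRT10 and 0.82 for KRT6A. Without it, 17 keratins changed, 6 higher and 11 lower (41.7% of all genes). KRT14 then fell by 0.75 (adjusted p = 4.65e-12), KRT16 by 0.91 (adjusted p = 7.12e-10), KRT6B by 0.75 (adjusted p = 1.1e-08) and KRT15 by 0.81 (adjusted p = 2.95e-13) on the log2 scale. KRT19 and KRT13, not called with all libraries, were then at -1.01 (adjusted p = 3.27e-05) and -1.36 (adjusted p = 0.00027). KRT17, not called with all libraries, turned from 0.40 to -0.11 without replicate 3 and did not pass either (adjusted p = 0.139). The rises were smaller for KRT8 (0.64), KRT18 (1.00), KRT7 (0.85) and KRT86 (1.66), and nearer to the full fit for KRT81 (9.56) and KRT80 (1.10), all past the threshold.

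In HN6 with IL-8, the hair keratins KRT81 and KRT86 rose, and so did KRT15. KRT81 went from 957, 689 and 886 to 1518, 1450.1 and 1429 CPM (log2 change 0.81 ± 0.19 (SE), adjusted p = 0.00643). KRT86 went from 18.4, 18.9 and 17.6 to 44.2, 34.8 and 42.0 CPM (1.15 ± 0.24 (SE), adjusted p = 0.00365). Neither gene overlapped between the groups. KRT15 rose from 29.4, 28.7 and 25.6 to 51.8, 46.2 and 52.3 CPM (0.85 ± 0.16 (SE), adjusted p = 0.00126), also without overlap. KRT10 rose from 32.8, 24.1 and 33.5 to 46.3, 41.4 and 37.6 CPM (0.48 ± 0.14 (SE), adjusted p = 0.0222), a call lost without IL-8 replicate 1 (adjusted p = 0.111), IL-8 replicate 2 (0.0597) or untreated replicate 2 (0.126) of HN6. The hair keratin KRT32 was the only tested keratin called lower, on 16 reads against 3 (adjusted p = 0.03). These 5 of 25 called (4 higher, 1 lower) stand beside 15.4% of all genes (7.61% higher, 7.81% lower). The median of the 25 was 0.17 with members at 0 reads set to their bound, beside 0.00 over all genes. Without replicate 1 or replicate 2 of HN6 with IL-8, 3 were called. KRT19 went from 470.1, 419 and 419.8 to 635, 622 and 628 CPM and KRT18 from 1032, 974 and 987 to 1293, 1308 and 1325 CPM without overlap. Their log2 differences of 0.54 and 0.40 missed the threshold (adjusted p = 0.1 and 0.173). KRT7 (0.38, adjusted p = 0.335), KRT8 (0.12, 0.744), KRT5 (-0.19, 0.0945), KRT17 (-0.25, 0.493), KRT16 (0.81, 0.173), KRT6A (-0.06, 0.835), KRT14 (0.14, 0.93) and KRT13 (0.10, 0.934) did not pass either.

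The test of these HN6 genes shares 1 estimate of spread per gene with all 18 libraries of the experiment, including the Cal27 library that stood apart. Without that library 14 keratins were called in HN6, 10 higher and 4 lower (32.7% of all genes), with smaller errors for the genes named here. KRT18 at 0.40 ± 0.038 (SE), adjusted p = 1.22e-10, KRT19 at 0.54 ± 0.052 (SE), adjusted p = 6.96e-10, KRT7 at 0.38 ± 0.073 (SE), adjusted p = 0.000726, and KRT16 at 0.81 ± 0.13 (SE), adjusted p = 4.41e-06, were then among those that rose. KRT5 at -0.19 ± 0.051 (SE), adjusted p = 0.00426, and KRT17 at -0.25 ± 0.063 (SE), adjusted p = 0.00193, were among those that fell. So were the hair keratins KRT32 at -2.33 (adjusted p = 0.0165) and KRT34 at -2.41 (adjusted p = 0.0277), both of low level.

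In HN4, IL-8 raised the wound keratins KRT6A and KRT17 and lowered KRT15. KRT6A rose from 7.04, 4.05 and 6.05 to 11.8, 10.4 and 14.1 CPM (1.08 ± 0.15 (SE), adjusted p = 0.000156), and KRT17 from 6.27, 5.46 and 6.46 to 11, 12.8 and 11.2 CPM (0.94 ± 0.27 (SE), adjusted p = 0.0261). Every treated library was above every untreated one for both. The call of KRT17 was lost without any 1 of 5 of the 6 HN4 libraries, all but replicate 1 with IL-8 (adjusted p from 0.0555 to 0.0912). KRT15 fell from 65.0, 61.3 and 59.4 to 31.0, 30.4 and 34.2 CPM (-0.96 ± 0.16 (SE), adjusted p = 0.000609), without overlap, the opposite direction to HN6. KRT5 rose from 169.8, 154 and 166 to 199, 198 and 192 CPM (0.27 ± 0.075 (SE), adjusted p = 0.0249). KRT78, a mucosal keratin, rose from 0.570 ± 0.181 to 1.23 ± 0.344 CPM (1.10 ± 0.31 (SE), adjusted p = 0.0248). With library-size or upper-quartile scaling KRT5 missed the threshold (adjusted p = 0.0583 and 0.0871), as did KRT78 without the filter (adjusted p = 0.0657). The call of KRT5 was also lost without any 1 HN4 library other than untreated replicate 1 (adjusted p from 0.054 to 0.115). That of KRT78 was lost without replicate 2 or 3 with IL-8, or replicate 1 or 2 of untreated HN4 (adjusted p from 0.0741 to 0.118). In this line 5 of 25 were called, 4 higher and 1 lower, beside 14.0% of all genes (6.89% higher, 7.09% lower). The median was 0.00 beside -0.01 over all genes. The count was 2 without replicate 2 or 3 of HN4 with IL-8 or replicate 2 of untreated HN4, and 3 without replicate 1 or 3 of untreated HN4. KRT81 stood at 3811, 3391 and 3583 CPM (-0.07 ± 0.18 (SE), adjusted p = 0.86). KRT8 at 1814, 1815 and 1841 CPM and KRT18 at 646, 648 and 652 CPM lay above all untreated libraries. Their log2 differences of 0.43 and 0.39 missed the threshold (adjusted p = 0.177 and 0.201). Without the Cal27 library that stood apart, 10 were called in HN4, 6 higher and 4 lower (30.3% of all genes), among them KRT8 (adjusted p = 3.64e-10) and KRT18 (adjusted p = 5.04e-10), and KRT7 at -0.29 (adjusted p = 0.0166). Other keratins of the naming rule did not pass with all libraries: KRT19 at -1.05 (adjusted p = 0.228), KRT10 at 0.20 (0.379), and KRT16 at -0.19 (0.921). KRT13 had 9 reads in untreated HN4 and 4 with IL-8 (adjusted p = 0.648), and KRT14 had 1 read in all 6 libraries.

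**Figure D3:**
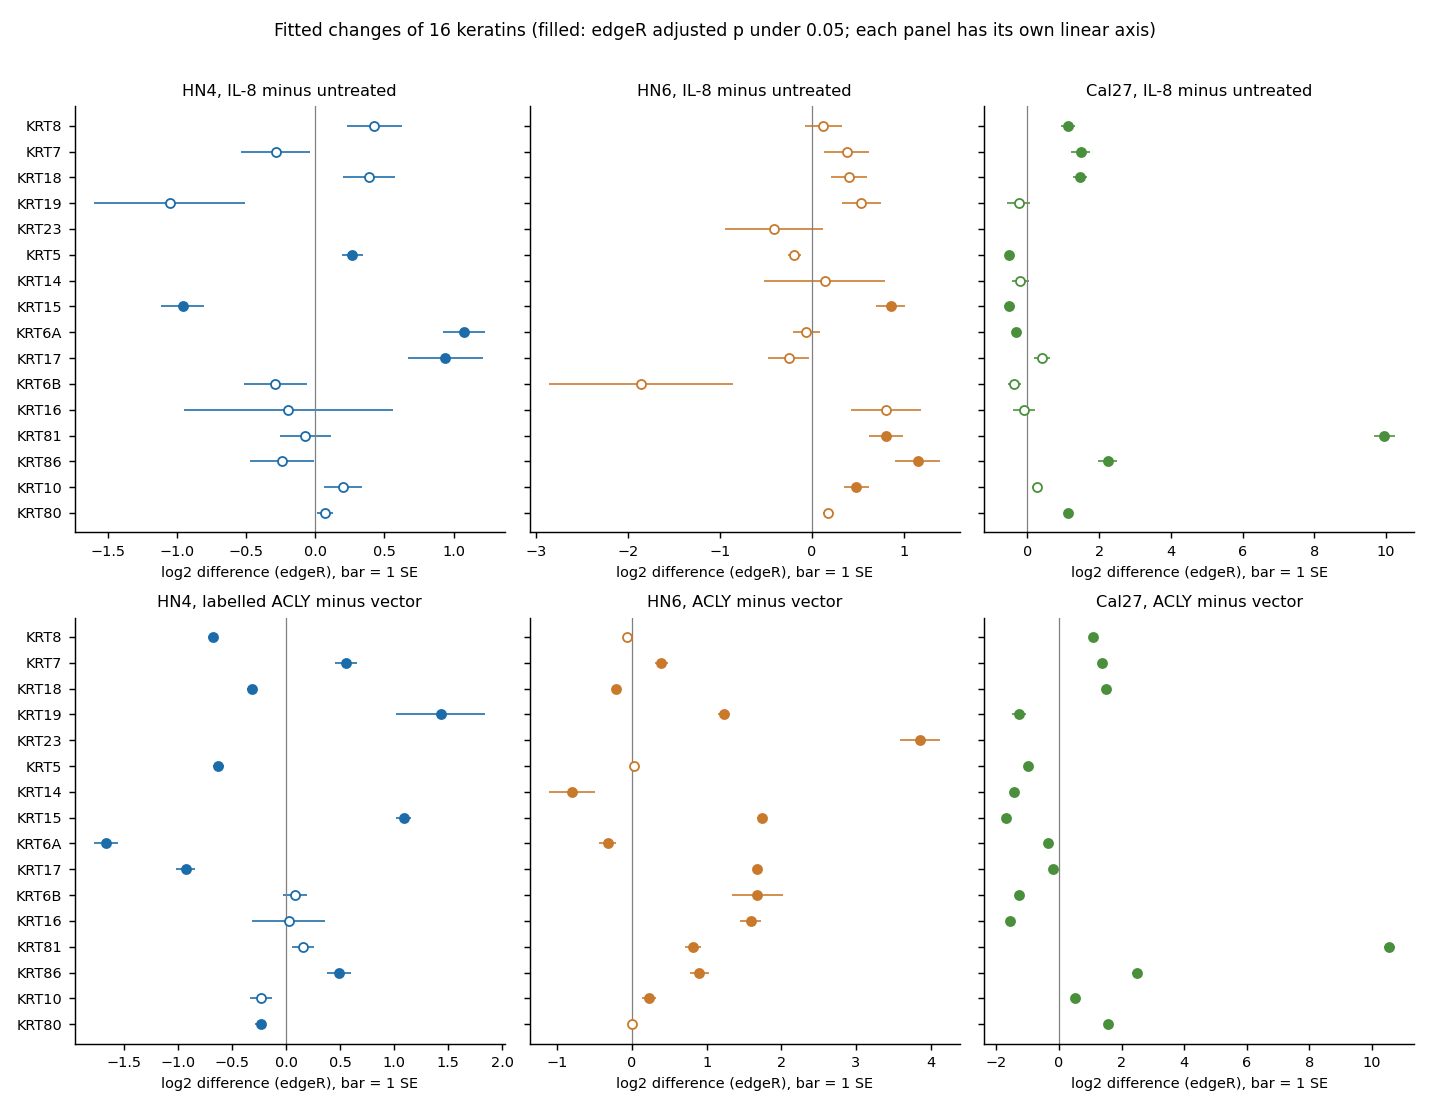
Log2 change ± SE of keratins in the 6 treatment comparisons (edgeR; IL-8 minus untreated, and labelled ACLY minus labelled vector, n = 3 libraries each); filled points passed the threshold, members near the detection limit in both groups are left out, and each panel has its own axis. KRT81 reaches 9.96 and 10.56 in Cal27, 0.81 and 0.82 in HN6, and lies at -0.07 and 0.16 in HN4. Cal27 with IL-8 or ACLY also held genes otherwise read only in HN4, and their part was not tested.

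Among the treatment comparisons, the widest set of keratin changes was between the vector and ACLY libraries of Cal27. Genes otherwise read only in HN4 were also read in these ACLY libraries, as given below. The part of RNA of another line in these changes was not tested. KRT81 went from 1.59, 1.85 and 1.09 CPM with vector, 88 reads in all, to 2288, 2482 and 2153 CPM with ACLY, a 1507-fold rise (log2 change 10.56 ± 0.18 (SE), adjusted p = 5.3e-16). The lowest ACLY library was far above the highest vector library. KRT86 rose from 5.46, 4.77 and 6.55 to 36.9, 28.9 and 29.8 CPM (2.49 ± 0.15 (SE), adjusted p = 2.97e-12), and KRT80 from 201, 189 and 206 to 600.2, 608 and 567 CPM (1.56 ± 0.052 (SE), adjusted p = 1.67e-23). Among simple epithelial keratins KRT8 rose from 657, 604 and 659.6 to 1402, 1399.7 and 1335 CPM (1.09 ± 0.045 (SE), adjusted p = 7.45e-21). KRT18 rose from 173, 173 and 177 to 502, 492 and 489 CPM (1.49 ± 0.044 (SE), adjusted p = 8.62e-25), and KRT7 from 23.4, 16.9 and 25.5 to 59.2, 61.4 and 51.8 CPM (1.38 ± 0.11 (SE), adjusted p = 1.1e-08). None of these overlapped between groups. KRT10 rose by 0.50 (adjusted p = 4.23e-05).

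All 3 basal keratins fell in Cal27 with ACLY. KRT5 went from 3369, 3075 and 3569 to 1720.5, 1720.1 and 1630.5 CPM (-0.99 ± 0.049 (SE), adjusted p = 1.51e-18). KRT14 went from 1065, 978 and 1121 to 402, 412 and 376 CPM (-1.42 ± 0.057 (SE), adjusted p = 1.94e-20), and KRT15 from 239.8, 231 and 248 to 75.9, 77.5 and 70.3 CPM (-1.70 ± 0.062 (SE), adjusted p = 2.9e-22). In each case all ACLY libraries were below all vector libraries. Of the 5 wound keratins 4 fell. KRT16 went from 40.3, 35.8 and 41.9 to 14.4, 13.8 and 12.1 CPM (-1.56 ± 0.12 (SE), adjusted p = 1.87e-13) and KRT6B from 109.9, 101 and 114 to 41.6, 46.9 and 46.0 CPM (-1.28 ± 0.082 (SE), adjusted p = 1.33e-15). KRT6A went from 636 ± 29.4 to 504 ± 23.0 CPM (-0.35, adjusted p = 7.73e-06) and KRT17 from 481 ± 19.8 to 428 ± 12.5 CPM (-0.18, adjusted p = 0.00234). KRT6C had 113 and 103 reads and did not pass (adjusted p = 0.873). Members of low level fell too, with log2 changes of -3.20 for KRT33B, -2.73 for KRT32, -1.81 for KRT33A and -1.36 for KRT34 among hair keratins. They were -1.95 for KRT75 of the companion layer, -1.73 for KRT9 of palm and sole epidermis, -1.84 for KRT13 and -1.28 for KRT19 (adjusted p from 2.13e-06 to 0.0256 for these 8). KRT33B missed the threshold with DESeq2 (adjusted p = 0.0506). By role, 3 of 3 basal keratins fell, 3 of 5 simple epithelial keratins rose and 1 fell, and 2 of 6 hair keratins rose and 4 fell. Of 25 keratins 22 changed, 7 higher and 15 lower, where 63.2% of all genes changed (34.2% higher and 29.0% lower). The median over the keratins was -0.99 beside 0.03 over all genes. KRT33A and KRT33B passed the low-count filter through vector Cal27, at 0.635 and 1.83 CPM, with 0 reads in HN4 labelled vector. KRT32 and KRT75 were at 2.51 and 2.34 CPM in vector Cal27, and at 0.228 and 0 CPM in HN6 with vector. The falls of KRT33A and KRT33B from vector Cal27 follow in part from this selection, and those of KRT32 and KRT75 may as well. The counts and the median include these members.

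In HN6 the ACLY plasmid raised most of the keratins that changed. KRT23, a type I keratin of simple epithelia (chr17:40922696-40937634), rose 14.5-fold, from 0.516, 0.901 and 0.741 to 10.1, 11 and 10.5 CPM (3.86 ± 0.27 (SE), adjusted p = 2.45e-14), and reached 10 CPM in no other group. It is thus among the keratins described at 10 CPM or more through this rise. KRT15 rose from 29.8, 33.3 and 33.0 to 104, 109.8 and 109 CPM (1.75 ± 0.067 (SE), adjusted p = 3.39e-21). KRT17 rose from 63.5, 62.7 and 59.6 to 198, 203 and 192 CPM (1.68 ± 0.056 (SE), adjusted p = 6.51e-23), and KRT16 from 4.71, 5.57 and 4.67 to 13.6, 17 and 14.4 CPM (1.59 ± 0.14 (SE), adjusted p = 1.19e-11). KRT19 rose from 451, 453 and 448 to 1055, 1076 and 1048 CPM (1.23 ± 0.084 (SE), adjusted p = 3.16e-10). None of these 5 overlapped between groups. The hair keratins KRT81 and KRT86 rose from 758, 927 and 852 to 1441, 1479.5 and 1538 CPM (0.82 ± 0.10 (SE), adjusted p = 1.1e-05) and from 23.2, 18.1 and 24.1 to 42.5, 39.9 and 39.8 CPM (0.90 ± 0.12 (SE), adjusted p = 2.3e-06). KRT34 rose from 14 to 88 reads (2.55 ± 0.45 (SE), adjusted p = 9.66e-06). KRT6B rose from 18 to 61 reads (1.68 ± 0.34 (SE), adjusted p = 9.33e-05), and KRT7 from 1163 ± 44.4 to 1525 ± 25.7 CPM (0.39, adjusted p = 0.00165).

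The simple epithelial pair KRT8 and KRT18 moved little in HN6 with ACLY. KRT8 was at 2969, 2996 and 2914 CPM with vector and 2827, 2850.1 and 2750.2 CPM with ACLY (-0.07 ± 0.044 (SE), adjusted p = 0.173). KRT18 fell from 958, 968 and 962 to 832, 853 and 795 CPM (-0.22 ± 0.043 (SE), adjusted p = 5.67e-05). KRT5 (0.03, adjusted p = 0.613) and KRT80 (-0.01, adjusted p = 0.946) did not pass, and KRT6A fell by 0.33 (adjusted p = 0.0119), a call lost without ACLY replicate 3 of HN6 (log2 change -0.23, adjusted p = 0.107). KRT10 (0.23, adjusted p = 0.0474), KRT13 (0.74, 0.0414), KRT14 (-0.80, 0.0458) and KRT78 (1.47, 0.0485) passed narrowly. KRT10 and KRT14 did not with DESeq2 (adjusted p = 0.0545 and 0.0563), nor KRT13 without the filter (adjusted p = 0.0737). Each of these 3 calls was also lost without single HN6 libraries (adjusted p up to 0.294 for KRT10, 0.221 for KRT13 and 0.172 for KRT14). By role, 3 of 5 wound keratins rose and 1 fell, 3 of 5 simple epithelial keratins rose and 1 fell, and 3 of 6 hair keratins rose. In all, 16 of 25 were called, 13 higher and 3 lower, where 51.6% of all genes were (26.8% higher and 24.9% lower). The replicate block took 1 of them away, KRT10 (adjusted p = 0.0574). The median was 0.69 at the bounds, beside 0.04 over all genes.

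In the HN4 plasmid libraries KRT15 was higher, and KRT6A, KRT17, KRT8 and KRT5 lower, in those labelled ACLY than in those labelled vector. KRT15 was at 25.8, 25.8 and 22.8 CPM in the libraries labelled vector and 53.4, 47.6 and 56.0 CPM in those labelled ACLY. KRT6A was at 13.3, 15.7 and 16.7 and 3.94, 4.76 and 5.66 CPM. Beside them, untreated HN4 had 65.0, 61.3 and 59.4 CPM of KRT15 and 7.04, 4.05 and 6.05 CPM of KRT6A. HN4 with IL-8 had 31.0, 30.4 and 34.2 and 11.8, 10.4 and 14.1 CPM. For both genes the libraries labelled vector were nearer to the IL-8 group and those labelled ACLY nearer to the untreated group. Labelled ACLY minus labelled vector, KRT15 differed by 1.09 ± 0.071 (SE), adjusted p = 2.62e-14, KRT6A by -1.66 ± 0.11 (SE), adjusted p = 7.55e-14, and KRT17 by -0.93 ± 0.091 (SE), adjusted p = 3.91e-10. KRT8 differed by -0.68 ± 0.045 (SE), adjusted p = 3.67e-14, KRT5 by -0.63 ± 0.051 (SE), adjusted p = 7.41e-12, and KRT18 by -0.32 ± 0.043 (SE), adjusted p = 2.93e-07. KRT8 was at 1945, 1982 and 1869 CPM labelled vector and 1251, 1179.9 and 1180.2 CPM labelled ACLY. KRT5 was at 196, 208 and 201 and 135, 132 and 122 CPM, and neither gene overlapped. KRT80 was lower by a log2 difference of -0.24 (adjusted p = 0.000291). KRT7, KRT86 and KRT19 were higher by 0.55, 0.49 and 1.43 (adjusted p = 0.000316, 0.00157 and 0.00999), and KRT19 overlapped between the groups at about 1 CPM. KRT19 missed the threshold with the HN4 groups fitted alone (adjusted p = 0.0649) and without labelled vector replicate 3 (adjusted p = 0.0549). KRT14 passed the test on 5 reads against 0, under the detection limit in both groups, so no fold is given. That made 11 of 25, 4 higher and 7 lower, where 38.1% of all genes passed (18.9% higher and 19.1% lower). The median was 0.00 beside 0.01 over all genes. KRT81, at 3558, 3309.7 and 4488 CPM labelled ACLY, did not (0.16 ± 0.10 (SE), adjusted p = 0.25), nor did KRT10 (-0.23, adjusted p = 0.0717) or KRT16 (0.02, adjusted p = 0.981). Without replicate 3 of HN4 labelled ACLY, which held 1.31 times the KRT81 of the other 2, KRT81 was at 0.01 (adjusted p = 0.931) and 10 keratins passed, KRT14 no longer (adjusted p = 0.0637). KRT14 was also lost with DESeq2 (adjusted p = 0.0507) and without any 1 of 4 other libraries of these groups.

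Levels in treated Cal27 were also read as a share of the level in untreated lines, beside genes read in 1 line alone. Outside the keratins, 19 protein-coding genes were at 10 CPM or more in every untreated HN4 library and at 0.5 CPM or less in every untreated library of the other lines. By the same rule 16 genes met this for HN6 and 27 for Cal27, a choice made after the values were seen. The rule itself fixes a share near 0 in untreated libraries of the other lines. It also makes each set high in the untreated line used as its reference. As a share of its level in untreated HN4, the median HN4-only gene was at 0 in untreated and vector Cal27 and in all 4 HN6 groups, at 0.292, 0.294 and 0.290 in the 3 Cal27 libraries with IL-8, and at 0.503, 0.513 and 0.503 in those with ACLY. The median Cal27-only gene was at 0.672, 0.660 and 0.619 of its untreated Cal27 level with IL-8 and at 0.435, 0.452 and 0.381 with ACLY, and the median HN6-only gene was at 0 in all 4 Cal27 groups.

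On the HN4 scale, KRT81 in Cal27 was at 0.343, 0.317 and 0.627 of its untreated HN4 level with IL-8 and at 0.605, 0.656 and 0.569 with ACLY. KRT86 was at 0.327, 0.320 and 0.789 and 0.656, 0.515 and 0.530, and KRT80 at 0.620, 0.619 and 0.646 and 0.887, 0.898 and 0.838. In replicates 1 and 2 with IL-8, the shares of KRT81 and KRT86 were thus slightly above the median HN4-only gene, and in replicate 3 far above it. The median itself was alike in all 3 libraries. Unlike that median, KRT86 and KRT80 did not start from 0 in Cal27. In untreated and vector Cal27, KRT86 was at 4.77 to 6.78 CPM and KRT80 at 189 to 206 CPM. Their shares include that level and do not measure the rise alone. As a share of untreated Cal27, KRT5 was at 0.689, 0.688 and 0.734 with IL-8 and 0.530, 0.530 and 0.502 with ACLY. KRT14 was at 0.611, 0.597 and 1.41 and 0.396, 0.405 and 0.370, and KRT15 at 0.570, 0.587 and 0.968 and 0.309, 0.316 and 0.286. The part of RNA of another line in the Cal27 results was not tested. In HN6 the median HN4-only gene was at 0 with IL-8 and with ACLY. These genes were chosen for a low level in untreated HN6. The cause of the KRT81 rise in HN6 was not tested.

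**Figure D4:**
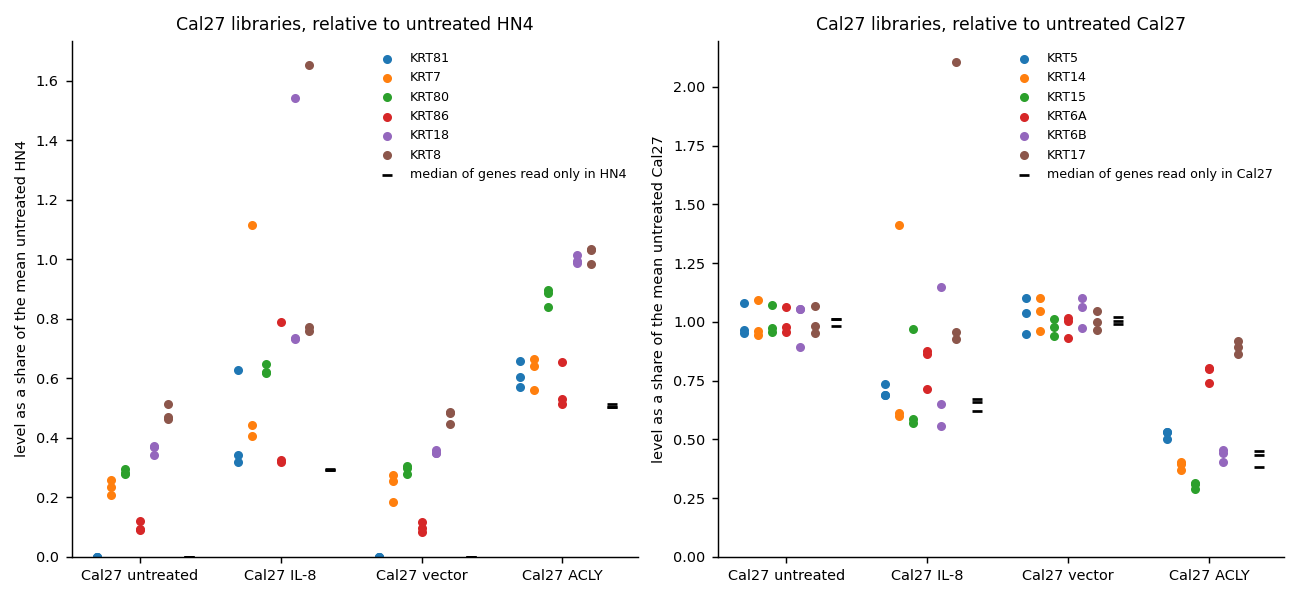
Level in each Cal27 library as a share of the untreated HN4 mean for keratins higher in HN4 (left) and of the untreated Cal27 mean for keratins higher in Cal27 (right); points are libraries, and dashes mark, for each library, the median of the genes read in that line alone. HN4-only genes were chosen for a low level in untreated Cal27, where their median share is 0. It is 0.292 with IL-8 and 0.506 with ACLY, and KRT81 is at 0.343, 0.317 and 0.627 and at 0.605, 0.656 and 0.569.

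The response of a keratin differed among the 3 lines, by a test of the interaction, for 11 of 25 members with IL-8 (40.2% of all genes) and for 21 with the plasmids (70.9%), the latter including HN4 as labelled. Without replicate 3 of Cal27 with IL-8 it did so for 16 of 26 with IL-8 (54.4% of all genes). For KRT81 the adjusted p was 1.12e-12 with IL-8 and 5.35e-15 with the plasmids. For KRT15, which fell in HN4, rose in HN6 and fell in Cal27 with IL-8, it was 1.49e-05, and for KRT5, which rose in HN4 and fell in Cal27, 6.58e-05. The interaction of KRT17 with the plasmids had an adjusted p of 1.47e-22, with changes of -0.93 in HN4 as labelled, 1.68 in HN6 and -0.18 in Cal27.

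Proteins that tie keratin filaments to desmosomes and hemidesmosomes or to each other were read from a list of 12 genes, all tested. With IL-8, 8 of 12 changed in Cal27 (5 higher and 3 lower; 39.4% of all genes), 4 in HN6 (1 higher and 3 lower; 15.4%) and 0 in HN4 (14.0%). In HN4 2 had an unadjusted p under 0.05 by edgeR and DESeq2 called 0. Without the Cal27 library that stood apart, 9 were called in Cal27, 8 in HN6 and 6 in HN4. The shares of all genes called without it, given above for each line, rose as well. With the plasmids 11 changed in Cal27 (6 and 5; 63.2% of all genes), 11 in HN6 (4 and 7; 51.6%) and 6 between the HN4 groups as labelled (4 and 2; 38.1%). PLEC, which encodes the cytolinker plectin, rose most of the 12 in Cal27, from 215 ± 19.1 to 775 ± 250.1 CPM (642, 620.5 and 1064 CPM in the treated libraries) with IL-8 (1.84 ± 0.15 (SE), adjusted p = 6.18e-08). Without replicate 3 its log2 change was 1.53 (adjusted p = 5.72e-16). It rose from 237 ± 12.6 to 1075 ± 10.6 CPM with ACLY (2.17 ± 0.068 (SE), adjusted p = 5.99e-20). In HN6 with ACLY it fell from 1314 ± 23.7 to 807 ± 26.4 CPM (-0.70 ± 0.065 (SE), adjusted p = 6.77e-10). In untreated cells PLEC was lower in Cal27 than in HN4, at a log2 difference of -2.79 (adjusted p = 4.16e-11). The cause of its rise in Cal27 was not tested. DSP, the desmoplakin that anchors keratins in desmosomes, fell in Cal27 by 0.58 with IL-8 (adjusted p = 4.76e-05) and 0.94 with ACLY (adjusted p = 9.77e-18), and in HN6 with IL-8 by 0.41 (adjusted p = 0.00296). Without the Cal27 library that stood apart, DSP fell with IL-8 by 0.46 in Cal27 (adjusted p = 3.58e-10) and by 0.41 in HN6 (adjusted p = 6.53e-10). PKP1, a desmosomal plakophilin, fell in Cal27 by 0.82 and 1.53 (adjusted p = 2.96e-06 and 9.29e-23), and by 0.69 with IL-8 without that library (adjusted p = 8.45e-13). In HN6 with ACLY, JUP, plakoglobin, rose from 479 ± 14.7 to 861 ± 33.6 CPM (0.85, adjusted p = 6.37e-17) and EPPK1, epiplakin, from 5.90 ± 0.485 to 15.9 ± 1.53 CPM (1.43, adjusted p = 3.14e-11).

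Of 16 other intermediate filament genes 10 were tested with IL-8 and 11 with the plasmids. IL-8 changed 4 of 10 in each line, 3 higher and 1 lower in HN4 (14.0% of all genes), 4 lower in HN6 (15.4%), and 2 each way in Cal27 (39.4%). Without the Cal27 library that stood apart the counts were 6, 4 and 5, beside the higher shares of all genes given above for that fit. The plasmids changed 5 of 11 between the HN4 groups as labelled (1 higher and 4 lower; 38.1% of all genes), 9 in HN6 (3 and 6; 51.6%) and 8 in Cal27 (4 and 4; 63.2%). VIM, the vimentin of mesenchymal cells, set HN6 apart at 119 ± 3.84 CPM, against 0.148 ± 0.0674 CPM in HN4 and 0.989 ± 0.320 CPM in Cal27. It fell in HN6 with IL-8 to 49.5 ± 2.08 CPM (-1.25 ± 0.15 (SE), adjusted p = 2.03e-05) and with ACLY from 106 ± 2.03 to 63.9 ± 5.33 CPM (-0.72 ± 0.088 (SE), adjusted p = 1.28e-08). The neurofilament genes NEFL and NEFM had reads in Cal27 and 0 in the untreated, IL-8 and plasmid libraries of HN4 and HN6. They fell in Cal27 with ACLY from 22.9 ± 1.36 to 2.66 ± 0.0878 CPM (-3.12, adjusted p = 3.67e-15) and from 17.6 ± 0.712 to 1.64 ± 0.132 CPM (-3.43, adjusted p = 1.28e-14).

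Of the 8 members that peaked between 1 and 10 CPM, all had their highest mean in untreated or vector Cal27. These means were 4.63 CPM for KRT13, 3.12 for KRT9, 2.66 for KRT32, 2.43 for KRT6C, 2.43 for KRT75, 2.12 for KRT78, 2.09 for KRT33B and 1.67 for KRT34. The 31 members under 1 CPM included 12 of the 17 hair keratins and 8 of the 9 keratins of the inner root sheath and companion layer. KRT33A was the highest of them, at 0.719 ± 0.194 CPM in untreated Cal27, followed by KRT74 at 0.597 ± 0.236 CPM in the same group. For 22 of the 31 the highest group was a Cal27 group. With all libraries KRT33A was the only one of the 31 to pass the filter for testing, and the others were not tested.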

How the data were processed

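Each library's reads had been counted per gene. The deposited table holds whole-number counts for 58735 genes; per the submitters' processing notes, the authors used CASAVA, HISAT2 2.0.5 and featureCounts 1.5.0-p3 with hg38, and DESeq2. All gene positions match GENCODE 29; 27 symbols that read as dates were restored from it. Levels are CPM with TMM scaling over 36 libraries. Each experiment (18 libraries, 6 groups) was tested by quasi-likelihood with robust estimation in edgeR 4.0.16, with limma 3.58.1 under R 4.3.3, after filterByExpr (minimum count 10, total 15), giving 18398 genes with IL-8 and 18556 with the plasmids; a gene was called at an adjusted p under 0.05 over all of them. The code was tested on simulated data. Alternatives were DESeq2 1.42.0, other scalings and filters, the groups compared alone, a replicate block, and leaving out each library. The members and gene lists were chosen with earlier results of these data known. Genes were named if called with a level of at least 1 CPM in a group and a log2 change of at least 1 (at most 8 per direction), plus 13 fixed keratins. Strand, annotation release and handling of multi-mapped reads are not given in the sources used here. Replicate numbers were not used to pair libraries in the main fits, and the labels do not say whether they do.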

Additional observations from a re-analysis of the deposited data

Results flagged for a closer look

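Of the 16 keratins that reached 10 CPM in a group, 10 passed the test of the interaction of line and treatment both with IL-8 and with the plasmids (edgeR, p adjusted over all genes), and 5 passed it with the plasmids and not with IL-8, which does not show that their IL-8 responses were alike. Over all genes 40.2% passed with IL-8 and 70.9% with the plasmids. KRT23, 1 of the 5, reached 10 CPM only in HN6 with ACLY. It stands among the 16 through that change, so its pass is no separate support. Without replicate 3 of Cal27 with IL-8, 16 of 26 tested keratins passed with IL-8, in place of 11 of 25. The plasmid tests include the HN4 libraries as labelled. For the hair keratins the adjusted p was 1.12e-12 with IL-8 and 5.35e-15 with the plasmids for KRT81, and 0.000114 and 1.8e-08 for KRT86. KRT80 had 3.7e-08 with IL-8 and 1.72e-21 with the plasmids. Among the simple epithelial keratins these were 0.0223 and 4.86e-22 for KRT8, 0.00527 and 9.76e-24 for KRT18, and 0.00315 and 3.24e-05 for KRT7, while KRT19 and KRT23 passed with the plasmids only, at 6.55e-08 and 0.000982. Basal KRT5 had 6.58e-05 with IL-8 and 2.25e-14 with the plasmids, and KRT15 1.49e-05 and 2.97e-26. The wound keratins KRT6A and KRT17 had 7.24e-05 and 0.0292 with IL-8, and 1.44e-10 and 1.47e-22 with the plasmids; KRT6B and KRT16 passed with the plasmids at 3.69e-12 and 6.79e-16. KRT10 passed with the plasmids at 0.000113. Groups of 3 libraries are too small for a test of single libraries that stand apart.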

How the results depend on the processing

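No called log2 change of a named keratin reversed direction under the alternatives run. Of 348 counts of called keratins under an alternative, 329 were within 1.5 times the count reported. Calls moved most with IL-8. With the groups compared alone the counts were 12 in HN4, 12 in HN6 and 7 in Cal27, and in HN6 DESeq2 called 8 and no filter gave 10. Shares of all genes called in these fits are not given here, so the counts show only how calls depend on the fit. Requiring a mean of at least 5 CPM left fewer keratins to test, and 14 differed for untreated Cal27 against HN4, 14 for the vector groups of these lines, 14 for untreated Cal27 against HN6 and 15 for their vector groups. Leaving out each library in turn gave 2 to 10 calls with IL-8 in HN4, 3 to 14 in HN6 and 8 to 17 in Cal27, the highest value of each without Cal27 IL-8 replicate 3. It gave 10 to 11 between the HN4 plasmid groups, 11 to 15 in HN6 and 21 to 22 in Cal27 with ACLY. For HN6 against HN4 it gave 19 to 20 (vector 18 to 19), for Cal27 against HN4 23 to 24 (vector 23 to 25), for Cal27 against HN6 24 to 26 (vector 25 to 25), and 9 to 16 and 19 to 22 for the interactions with IL-8 and the plasmids. A fit of the compared groups alone was not run for the interactions. The replicate block left 15 calls in HN6 with ACLY in place of 16 and the same count elsewhere. Deviations of same-numbered libraries from their group means had correlations from -0.35 to 0.30. With 3 libraries a group, these cannot show whether libraries were paired. In the main fits the numbers name libraries only. Depth limits the members under about 1 CPM. Of 158 named calls 17 were lost under at least 1 alternative. The causes were not tested.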
